A study of Homo sapiens with 8 samples.

Results

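Aminoacyl-tRNA synthetases join each amino acid to its tRNA. The set described here holds 39 listed genes, namely 19 cytosolic synthetases or synthetase subunits, 16 mitochondrial synthetases (gene names ending in 2), 3 scaffold proteins of the cytosolic multi-synthetase complex and XPOT, the nuclear exporter of tRNA. Members were found as probe sets annotated with that gene symbol alone, and 37 of the 39 genes were measured among the 15226 genes tested. AIMP2 and EEF1E1, both scaffold proteins, had no probe set of their own in the annotation used. The series holds 8 Affymetrix PrimeView arrays of MIA PaCa-2, an established human pancreatic carcinoma cell line. In the 4 control arrays the cells were given the vehicle DMSO, and in the 4 PA arrays they were given 30 µM pachymic acid (PA), a triterpene of the fungus Poria cocos kept as a DMSO stock. All cells were treated for 24 h, so the data hold 1 dose, 1 time and 1 cell line. The design text calls the controls untreated, while their labels give DMSO.

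Synthetases fall into class I and class II, whose catalytic domains are unrelated. In the cytosol several of them are held in the multi-synthetase complex by the scaffold proteins AIMP1, AIMP2 and EEF1E1. Mitochondria have a second set of enzymes, encoded in the nucleus and imported, while GARS1 and KARS1 serve both compartments. When tRNAs are uncharged the kinase GCN2 phosphorylates eIF2α, and during ER stress the kinase PERK does the same. Translation of ATF4 then rises, and ATF4 is known to induce many cytosolic synthetase genes through the C/EBP-ATF response element.

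The core of that element was looked for because it is the DNA sequence through which ATF4 is known to act on these genes. The letters TGATGNAA were searched on either strand of the RefSeq promoter windows (GRCh38.p14), from 250 bases before to 50 bases after each annotated start. Windows were found for 32 of the 37 measured genes, and 8 of these (25%) held the letters, against 4.46% of 27305 genes with a window. They were in 7 of the 16 cytosolic genes with a window and in 1 of 14 mitochondrial genes. The 8 stretches are given as read on the gene's own strand, with the matched letters in capitals. In all but NARS1 and YARS2 the match lies on the opposite strand and reads in reverse.
AARS1, chr16:70289675-70289704, minus strand: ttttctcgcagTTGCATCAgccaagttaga
CARS1, chr11:3057407-3057436, minus strand: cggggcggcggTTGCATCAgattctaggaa
GARS1, chr7:30594834-30594863, plus strand: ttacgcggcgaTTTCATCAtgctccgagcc
IARS1, chr9:92293692-92293721, minus strand: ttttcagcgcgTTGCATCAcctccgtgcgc
MARS1, chr12:57488053-57488082, plus strand: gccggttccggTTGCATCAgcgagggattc
NARS1, chr18:57621804-57621833, minus strand: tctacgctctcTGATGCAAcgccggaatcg
TARS1, chr5:33440956-33440985, plus strand: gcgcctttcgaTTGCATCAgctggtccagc
YARS2, chr12:32756076-32756105, minus strand: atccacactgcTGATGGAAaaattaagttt
In CARS1, MARS1, NARS1, TARS1 and IARS1 the match began within 14 bases of the annotated start. A match of letters is a description and shows no binding.

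The arrays were much alike, with medians of 5.71 to 5.77 on the log2 scale. The keratins KRT8, KRT18 and KRT19 and the filament protein VIM had control means of 11.5 to 14.38. EPCAM and CDH1 were at 3.97 and 4.14, close to the minimum of 4 used here. KRT8 and KRT18 were raised by PA at their brightest probe sets (0.18 and 0.19, adjusted p = 0.0309 and 0.0146). In a fit over all probe sets, 1 of 8 KRT8 probe sets (-0.09 to 0.22) and 1 of 2 KRT18 probe sets were raised. KRT19 and VIM changed by -0.165 and 0.005 and were not called. Of the markers reported here for leukocytes, fibroblasts, endothelium, acinar and islet cells, PTPRC, DCN, INS and GCG stayed below that minimum. CD14 and COL1A2 had control means of 7.35 and 10.41 and fell with PA, by 0.52 and 0.53 on the log2 scale at their brightest probe sets. In the fit over all probe sets, 2 of 2 CD14 probe sets and 3 of 6 COL1A2 probe sets (-0.74 to 0.155) were lowered. The other 9 markers that reached the minimum were not called, and the part of these markers in the results was not tested. The GC-rich background probe sets, which match no transcript, had a mean signal of 6.59 to 6.95 in control and 6.92 to 7.12 in PA arrays. With this background as a term in the limma fit, CD14 was still called (adjusted p = 0.0219). COL1A2, KRT8 and KRT18 were then not called (adjusted p = 0.202, 0.532 and 0.269). Cells were treated in quadruplicate, though on which days or from which passages is not given in the sources used here, and every p-value here reflects no more than the spread among these arrays, which may be technical.

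PA raised 7 of the 19 cytosolic synthetase genes and lowered none of them, each read at its brightest probe set and called at an adjusted p under 0.05 from limma. Of all genes tested 9.69% were raised and 11.9% lowered, 21.6% together. The raised genes were MARS1, WARS1, YARS1, AARS1, GARS1, SARS1 and FARSA, with changes of 1.11-fold to 1.23-fold. None of the 37 genes reached 1.5-fold at its brightest probe set, where 0.466% of all genes were raised and 0.709% lowered by that much. The median log2 change of the 19 genes was 0.13, against 0.015 over all genes, and 16 of the 19 log2 changes were above 0. One gene, QARS1, had an unadjusted p under 0.05 in the downward direction. None of the 7 was called once the GC-rich background was a term in the fit. Signals are averages over a culture, so fewer cells of a kind and less RNA per cell cannot be told apart. Of the 16 mitochondrial genes, MARS2 and SARS2 were raised, IARS2 was lowered and 13 were not called, with a median of -0.01. The value was above 0 in 7 mitochondrial genes and below 0 in 9. No set test was made, and these shares describe the members beside all genes.

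**Figure D1:**
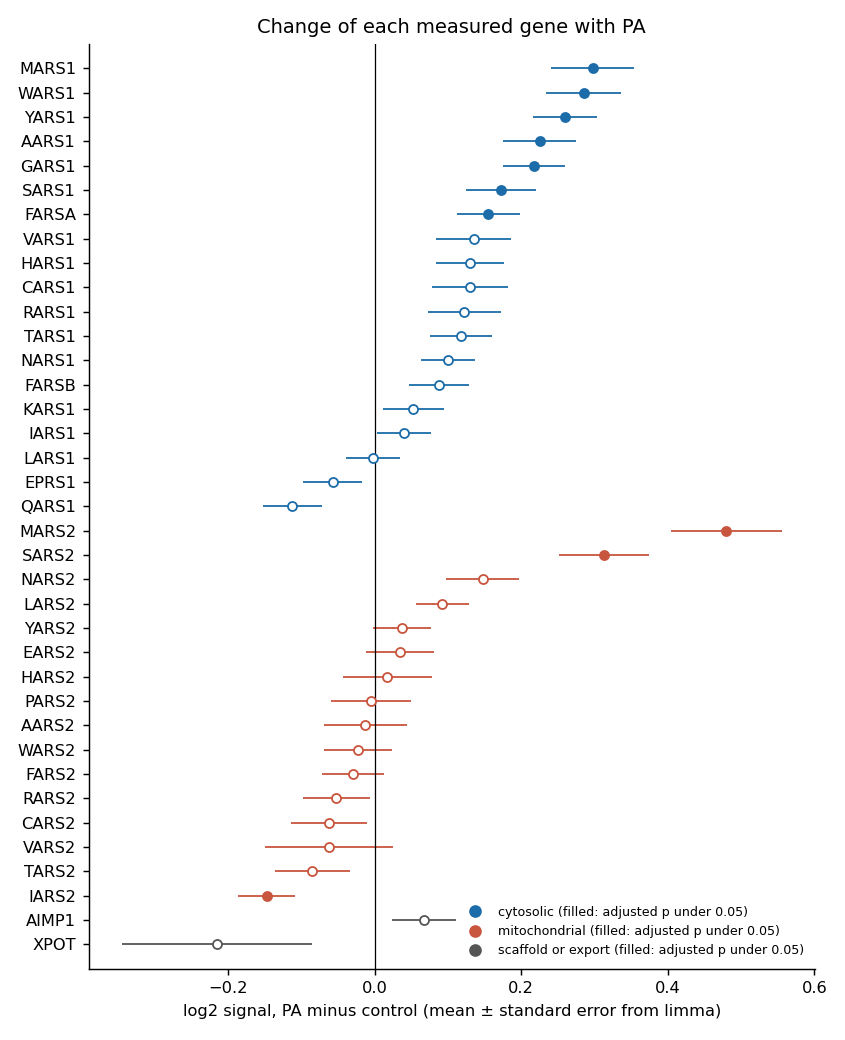
Log2 change with PA of each of the 37 measured genes at its brightest probe set (x axis, PA minus control, with the standard error from limma), by set and ordered by size. Filled points have an adjusted p under 0.05 over all 15226 genes. Most cytosolic genes lie right of 0 with a median of 0.13, and MARS2 lies farthest right at 0.48.

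MARS1, the cytosolic methionyl-tRNA synthetase, had log2 signals of 8.47, 8.29, 8.53 and 8.43 in control and 8.71, 8.73, 8.78 and 8.69 in PA arrays. The lowest PA array was above the highest control array, and the change was 0.30 (standard error 0.057, adjusted p = 0.00735). The log2 changes of its 5 tested probe sets were 0.27 to 0.43, and 4 of them were called. MARS1 belongs to class I and to the multi-synthetase complex.
WARS1, the tryptophanyl-tRNA synthetase, which interferon gamma is also known to induce, had 11.61, 11.49, 11.66 and 11.56 in control and 11.79, 11.89, 11.88 and 11.90 in PA arrays. The groups did not overlap, and the change was 0.29 (standard error 0.051, adjusted p = 0.00531). All 3 of its tested probe sets were called, with changes of 0.29 to 0.30.
YARS1, the tyrosyl-tRNA synthetase, went from 9.73, 9.63, 9.74 and 9.75 to 10.00, 9.95, 9.99 and 9.95. Every PA array was higher than every control array, and the change of 0.26 (standard error 0.043) had an adjusted p of 0.00415, the smallest of the cytosolic genes. It was read at its single probe set.
AARS1, the alanyl-tRNA synthetase, had 9.32, 9.37, 9.45 and 9.48 in control and 9.70, 9.62, 9.61 and 9.59 in PA arrays. The lowest PA array exceeded the highest control array by 0.11 (change 0.23 with a standard error of 0.05, adjusted p = 0.014). Its second probe set changed by 0.21 and was called as well.
GARS1, the glycyl-tRNA synthetase of both compartments, had 12.37, 12.39, 12.46 and 12.44 in control and 12.68, 12.61, 12.63 and 12.61 in PA arrays. It rose by 0.22 (adjusted p = 0.00746), and both of its probe sets were called with changes of 0.21 and 0.22.
SARS1, the seryl-tRNA synthetase, had 10.18, 10.13, 10.25 and 10.26 in control and 10.44, 10.37, 10.32 and 10.38 in PA arrays. FARSA, the catalytic subunit of the phenylalanyl-tRNA synthetase, had 8.18, 8.04, 8.12 and 8.09 in control and 8.28, 8.25, 8.26 and 8.26 in PA arrays. In both genes the groups were apart, by 0.06 and 0.07, and the changes were 0.17 (adjusted p = 0.0323) and 0.16 (adjusted p = 0.0326). These calls were close to the threshold. Leaving out a single array ended the SARS1 call for controls 1 and 2 and for PA replicates 1, 2 and 4, with adjusted p-values of 0.0704 to 0.0812. The FARSA call ended for controls 2 and 4 and for each of the PA arrays (0.0689 to 0.0811), and also when arrays were centred on their medians (0.0651).

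**Figure D2:**
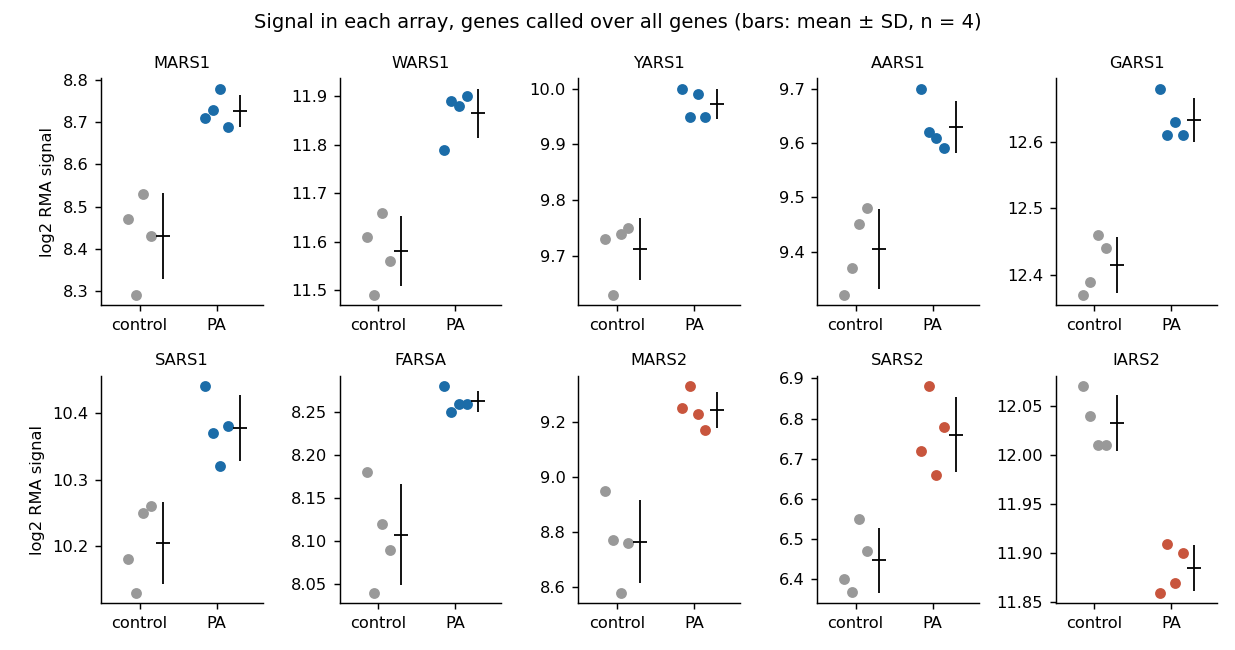
Log2 RMA signal (y axis, a scale of its own in each panel) in each of the 4 control and 4 PA arrays for the 10 called genes, with the mean and SD beside the points. In each of the 10 panels the control and PA arrays do not overlap, and IARS2 is the gene whose PA arrays are lower.

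The other 12 cytosolic genes were not called at their brightest probe set. Their log2 changes ran from -0.11 in QARS1 to 0.14 in VARS1, the valyl enzyme. HARS1 (histidyl), CARS1 (cysteinyl), RARS1 (arginyl), TARS1 (threonyl) and NARS1 (asparaginyl) had values of 0.10 to 0.13, with adjusted p-values of 0.0789 to 0.111. In HARS1, TARS1 and NARS1 all PA arrays were above all control arrays, which held for 11.9% of all genes and for 10 of the 19 cytosolic genes.
The value was 0.09 for FARSB, the other subunit of the phenylalanyl enzyme, 0.05 for KARS1 (lysyl) and 0.04 for IARS1 (isoleucyl). LARS1, the leucyl enzyme, was at 11.48, 11.51, 11.50 and 11.51 in control and 11.49, 11.51, 11.48 and 11.51 in PA arrays, which cover the same range. EPRS1, which joins the glutamyl and prolyl enzymes in 1 protein, was at -0.06.
QARS1, the glutaminyl enzyme, had 10.37, 10.28, 10.35 and 10.36 in control and 10.20, 10.22, 10.25 and 10.24 in PA arrays. It was the cytosolic gene with the most negative change at -0.11 (standard error 0.04, adjusted p = 0.0771). All its PA arrays lay below all control arrays, as in 14.5% of all genes. With the mean of its 2 probe sets its change was -0.19 and was called (adjusted p = 0.0226).

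Some genes gave different values at different probe sets. In all, 91 of 94 probe sets of members reached a mean of 4 in a group, and 23 of them were raised and 2 lowered in a fit over all 38748 probe sets, where 8% were raised and 9.07% lowered. The 3 left out, of PARS2, WARS1 and WARS2, had means of 3.03 to 3.66. The dimmest ones kept, of SARS2 and FARSB, had PA means of 4.07 and 4.17. NARS1 had a log2 change of 0.10 at its brightest probe set and of 0.01, 0.27 and 0.31 at the others, the last 2 of which were called. The values were 0.13, 0.24 and 0.26 for HARS1 and 0.12, 0.03 and 0.27 for TARS1, with 2 and 1 probe sets called. When the probe sets of each gene were averaged, NARS1 (0.17, adjusted p = 0.0136), HARS1 (0.21, 0.00552) and TARS1 (0.14, 0.0327) were called.
The dimmest LARS1 probe set stood apart from its brighter ones. It had 9.59, 9.55, 9.11 and 9.32 in control and 8.69, 9.05, 9.11 and 9.05 in PA arrays, a change of -0.42, while the others were at -0.09 and within 0.01 of 0. Control replicate 3 and PA replicate 3 had the same value, so the groups met at 9.11. This probe set was just called (adjusted p = 0.0478 in the fit over probe sets).
Of 27 members with at least 2 tested probe sets, the log2 changes were all above 0 in 15, all below 0 in 6 and of both signs in 6. Probe sets of a gene share transcripts and are not replicates. Of the 16 cytosolic members among them 12 were above 0 at every probe set, and of the 10 mitochondrial ones 3 did.

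**Figure D3:**
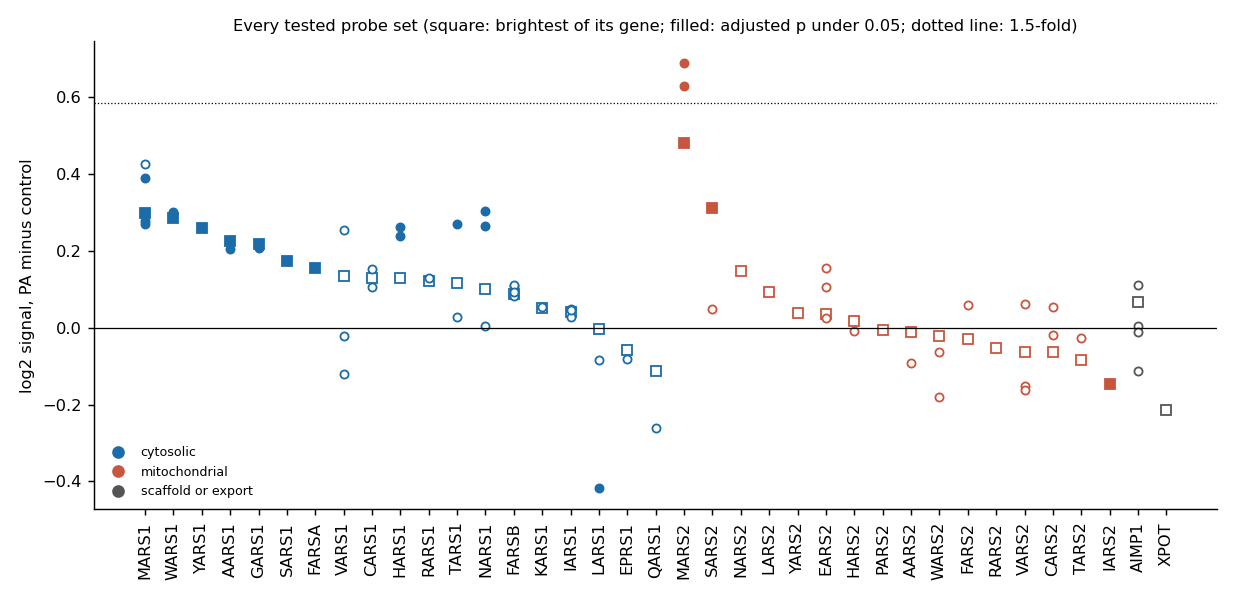
Log2 change with PA (y axis) at each of the 91 tested probe sets, by gene. Squares mark the brightest probe set of a gene, filled symbols an adjusted p under 0.05 over all probe sets, and the dotted line 1.5-fold. The 3 MARS2 probe sets lie at 0.48 to 0.69, and 1 LARS1 probe set lies at -0.42.

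MARS2, the mitochondrial methionyl-tRNA synthetase, had the largest change of all 37 genes. Its brightest probe set went from 8.95, 8.77, 8.58 and 8.76 in control to 9.25, 9.33, 9.23 and 9.17 in PA arrays. The groups did not overlap, and the change was 0.48, or 1.39-fold (standard error 0.076, adjusted p = 0.00329). The other MARS2 probe sets were dimmer, and both went further. The first had 5.80, 5.77, 5.84 and 5.87 in control and 6.44, 6.65, 6.49 and 6.46 in PA arrays, or 1.61-fold. The second had 5.67, 5.62, 5.75 and 5.74 against 6.27, 6.39, 6.36 and 6.28, or 1.55-fold. These were the 2 probe sets of the members raised at least 1.5-fold, as were 0.475% of all probe sets, and none was lowered that much, against 0.658%. Control replicates 1 and 3 were the highest and the lowest control arrays at the brightest probe set, and the change was 0.42 to 0.54 without each array in turn.
SARS2, the mitochondrial seryl-tRNA synthetase, had 6.40, 6.37, 6.55 and 6.47 in control and 6.72, 6.88, 6.66 and 6.78 in PA arrays. All PA arrays were higher, with a change of 0.31, or 1.24-fold (standard error 0.061, adjusted p = 0.00831). Its other probe set, near the minimum signal, was at 0.05 and was not called.
IARS2, the mitochondrial isoleucyl-tRNA synthetase, was the 1 member lowered at its brightest probe set, which is its single one. It had 12.07, 12.04, 12.01 and 12.01 in control and 11.86, 11.91, 11.87 and 11.90 in PA arrays. All PA arrays were below all control arrays, although the change between the group means was only -0.15 (standard error 0.039, adjusted p = 0.0263). The call ended when control 1, control 2 or any single PA array was left out, with adjusted p-values of 0.0539 to 0.0657.
NARS2 (asparaginyl) and LARS2 (leucyl) had log2 changes of 0.15 and 0.09 and were not called (adjusted p = 0.0658 and 0.101). LARS2 had a small spread, with 7.42 to 7.45 in control and 7.52 to 7.54 in PA arrays, so its groups did not overlap. NARS2 was called without control replicate 4.
In YARS2, EARS2, HARS2, PARS2, AARS2, WARS2, FARS2, RARS2, CARS2, VARS2 and TARS2, the enzymes for tyrosine, glutamate, histidine, proline, alanine, tryptophan, phenylalanine, arginine, cysteine, valine and threonine, the change was between -0.09 and 0.04. In each of these 11 genes the groups overlapped. Their standard errors were 0.04 to 0.087, the highest in VARS2. Whether a change as small as the cytosolic median could have been detected in each of them was not tested.

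The cytosolic and mitochondrial enzymes for the same amino acid were then compared directly. In each array the mitochondrial log2 signal was subtracted from the cytosolic one, and this difference was compared between PA and control, which asks whether the change with PA differs between both genes. Of 17 pairs the cytosolic gene had the more positive change in 11. In 7 pairs the arrays of both groups did not overlap, and each of these had an exact two-sided permutation p of 0.0286, the smallest that 4 arrays against 4 allow. Adjusted over the 17 pairs this is 0.0694, so no pair passed 0.05. Of all single genes, 11.9% had all PA arrays above all control arrays and 14.5% had them all below. How often the difference of other gene pairs separates the groups was not tested, so the count of 7 describes these pairs alone. EPRS1 and FARS2 are each in 2 pairs.
The cytosolic gene had the higher change in 6 of the 7 pairs, those for tryptophan, alanine, tyrosine, cysteine, isoleucine and phenylalanine (with FARSA). WARS1 exceeded WARS2 in its change by 0.31 (standard error 0.061), AARS1 exceeded AARS2 by 0.24 (0.066) and YARS1 exceeded YARS2 by 0.22 (0.043). The isoleucine pair had the narrowest spread among these 6. IARS1 minus IARS2 was 0.28 to 0.34 in control and 0.48 to 0.52 in PA arrays, a difference of 0.19 (standard error 0.016), although IARS1 itself was at 0.04 and was not called. In the seventh pair the mitochondrial gene had the higher change, with LARS1 minus LARS2 at 4.04 to 4.08 in control and 3.95 to 3.98 in PA arrays.
Methionine and serine were the amino acids for which genes of both sets were raised. The difference of change was -0.18 for MARS1 and MARS2 (standard error 0.11, exact permutation p = 0.171). For SARS1 and SARS2 it was -0.14 (standard error 0.053, exact permutation p = 0.0571). In both pairs the groups overlapped.

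**Figure D4:**
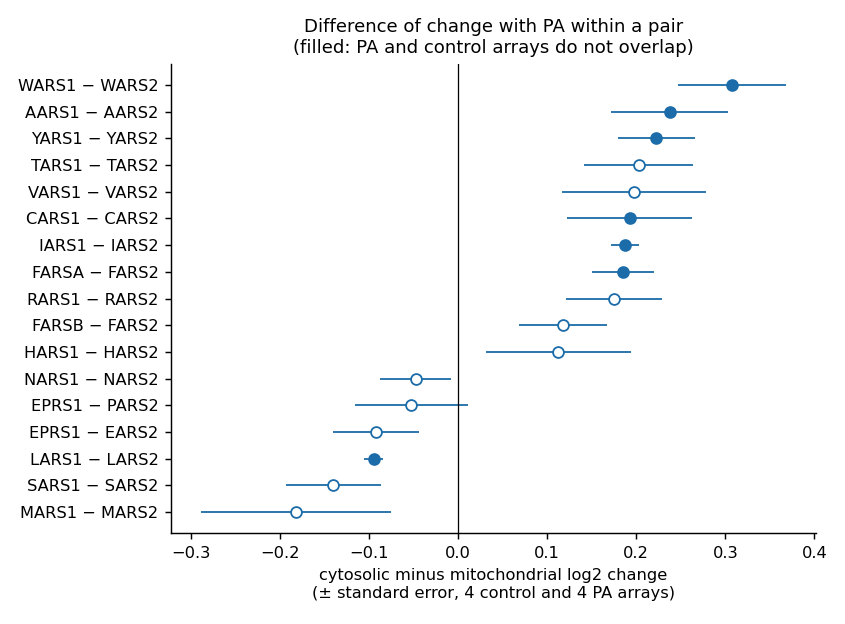
Difference between the log2 change of the cytosolic and that of the mitochondrial gene (x axis, with its standard error over 4 control and 4 PA arrays) for 17 pairs. Filled points mark the 7 pairs whose arrays do not overlap. In 11 pairs the point lies right of 0, where the cytosolic gene has the higher change.

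The called genes of the cytosolic set were counted in its known subgroups, and no test of a difference between them was made. Of all 15226 genes 9.69% were raised, and 8093 had log2 changes above 0. Of the 7 enzymes of the multi-synthetase complex, MARS1 was raised and 6 were not called, with a median of 0.04. Of the 12 enzymes outside it 6 were raised and all 12 had log2 changes above 0, with a median of 0.15 (log2 scale). Of the 10 class I enzymes 3 were raised, and of the 9 class II enzymes 4 were raised and all 9 had log2 changes above 0. EPRS1, at -0.06, holds a glutamyl part of class I and a prolyl part of class II and was counted in class I alone. Of 12 cytosolic genes known as ATF4 targets, 6 were raised, with changes of -0.06 to 0.30. FARSA was the 1 raised gene among the other 7. XPOT, which is outside the cytosolic set, was also listed as a known ATF4 target, and at -0.22 it was not called.
The genes with and without the response element letters were set side by side, with no test of the difference. The 7 cytosolic genes that hold them in their window had log2 changes of 0.04 to 0.30 with a median of 0.13, and 3 were raised (AARS1, GARS1 and MARS1). The 9 with a window but no match were at -0.11 to 0.29 with a median of 0.12, EPRS1 and QARS1 below 0, and 3 were raised as well (WARS1, SARS1 and FARSA). The mitochondrial gene with a match, YARS2, was not called.

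Neither of the 2 measured genes of scaffold and export was called. AIMP1, a scaffold of the complex, had a log2 change of 0.07 at its brightest probe set and of -0.11 to 0.11 over its 5 probe sets. XPOT, which carries mature tRNA out of the nucleus, had 11.58, 11.62, 11.03 and 11.11 in control and 11.13, 11.12, 11.12 and 11.11 in PA arrays. Control replicates 1 and 2 stood above the other 6 arrays, which were all at 11.03 to 11.13. The change of -0.22 had a standard error of 0.13 and was not called (adjusted p = 0.27). These 2 control arrays also had the lowest GC-rich background, 6.70 and 6.59, and control replicates 3 and 4 were at 6.95 and 6.83. The part of the background in the XPOT values was not tested further than in the fit with it as a covariate, where XPOT was at 0.17 (adjusted p = 0.529).

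Among other genes of tRNA charging and its use the shares called were near those of all genes. Of 27 listed, 25 were measured, 2 were raised (8%) and 4 were lowered (16%), against 9.69% and 11.9% of all genes. The raised genes were TRNT1, which adds the CCA end to tRNAs, at 0.28 (adjusted p = 0.00266), and QRSL1 at 0.21 (adjusted p = 0.0246). QRSL1 is a subunit of the mitochondrial amidotransferase that makes glutaminyl-tRNA. In the fit over probe sets 2 of 4 TRNT1 probe sets (0.155 to 0.4725) and 1 of 3 QRSL1 probe sets (-0.02 to 0.215) were raised.
EIF2AK4, the kinase GCN2, changed by -0.34 at its brightest probe set (adjusted p = 0.025), while its other probe set was at 0.12 and not called. IMPACT, which restrains GCN2, changed by -0.49 (adjusted p = 0.0155), while their partner GCN1 was at 9.67 in both groups. MTIF3, a mitochondrial initiation factor, changed by -0.18 and SEPSECS, which makes selenocysteinyl-tRNA, by -0.32 (adjusted p = 0.0229 and 0.0408). In SEPSECS the groups overlapped, and 1 of its 3 probe sets was lowered (-0.32 to -0.02). For MTIF3 1 of 2 probe sets was lowered, and the other was at 0.01. When the GC-rich background entered the fit TRNT1 was at 0.32 and still called (adjusted p = 0.0373), and the other 5 were not. QRSL1 was then at 0.20, SEPSECS at -0.20 and MTIF3 at -0.13, while EIF2AK4 was at -0.07 and IMPACT at -0.15. Of the 10 measured elongation and initiation factors that work with charged tRNA, MTIF3 was lowered and 9, including EEF1A1 and its mitochondrial counterpart TUFM, were not called.

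The shift of the cytosolic genes was visible in single arrays. Averaged over the 19 genes as the deviation from each gene's control mean, it was -0.03 to 0.02 in control arrays and 0.11 to 0.14 in PA arrays. For the 16 mitochondrial genes the same average was -0.02 to 0.02 in control and 0.01 to 0.07 in PA arrays, which overlap. Over all genes it was -0.01 to 0.02 in all arrays.
The GC-rich background was higher in PA arrays in the mean, and the control array with the lowest background, replicate 2 at 6.59, also had the lowest cytosolic average (-0.03). Control replicate 3 and PA replicate 3 had nearly the same background, 6.95 and 6.92, and their cytosolic averages were 0.01 and 0.12. These are 1 array of each group, and over all arrays the background was 6.59 to 6.95 in control and 6.92 to 7.12 in PA. The part of the background in these averages was not tested apart from the fit with it as a covariate. With the background as a covariate the median change of the cytosolic genes was 0.13 as before, and the median standard error was 0.061 in place of 0.043. None of the 19 was then called by limma, while 1.56% of all genes were called as raised and 1.52% as lowered. With the limma p-values before adjustment, 6 of the 19 rose and 0 fell at p under 0.05. By that looser rule 1447 of the 15226 genes rose and 1619 fell. All 7 cytosolic genes called before had smaller log2 changes with the covariate. MARS1, WARS1 and YARS1 were at 0.21, 0.23 and 0.20 in place of 0.30, 0.29 and 0.26. SARS1 was at 0.06 in place of 0.17 and AARS1 at 0.13 in place of 0.23. GARS1 was at 0.16 in place of 0.22 and FARSA at 0.13 in place of 0.16. Some genes not called before had larger changes, such as CARS1 at 0.18 in place of 0.13. SARS2 was at 0.19 and IARS2 at -0.12, and neither was called. MARS2 changed by 0.61 (adjusted p = 0.0347) and was the 1 member still called.

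**Figure D5:**
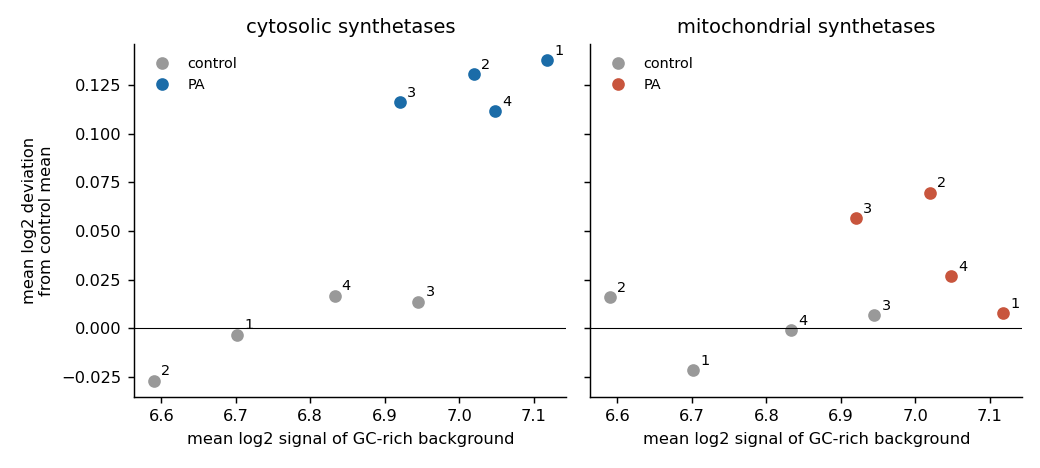
Mean deviation of the 19 cytosolic (left) and 16 mitochondrial genes (right) from their control means on the log2 scale (y axis) against the GC-rich background (x axis, mean log2 signal of its probe sets), 1 point per array with its replicate number. PA arrays lie at 0.11 to 0.14 on the left, above all control arrays, while on the right they lie at 0.01 to 0.07.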

How the data were processed

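The values are log2 signals that the authors deposited. Per the methods and labels (GCOS, Partek, RMA, versions not given), total RNA was labelled with the 3′ IVT Express kit, and signals were background-corrected, quantile-normalized and summarised by median polish (RMA) in Partek Genomics Suite. Whether arrays of another cell line were normalized with these is not given in the sources used here. Symbols came from the platform annotation, of which the current RefSeq names changed 0. Probe sets with a group mean of at least 4 were kept, 38748 in all. A gene was read at its brightest probe set with a single symbol (15226 genes). For PA against control, limma 3.58.1 (R 4.3.3; lmFit, then eBayes) gave p-values, which were adjusted by Benjamini-Hochberg over all genes or all probe sets. A gene whose adjusted p was under 0.05 was called, whatever its fold. Folds are of means of log2 signals. Pairs were compared by exact permutation over the 8 arrays, whose number limits the precision. Figures were drawn in Python 3.11.15 with matplotlib 3.10.9, and the fit was tested on simulated data. All 39 members were to be named, with values in every array for those called and those with the largest change of a set. The members, lists and alternatives were chosen with earlier results of these data known, the GC-rich covariate among them. Alternatives were other filters, normalizations, variance models and tests, the mean of all probe sets, the covariate, a replicate block and leaving out each array.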

Additional observations from a re-analysis of the deposited data

Results flagged for a closer look

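In 3 of the 74 groups of 4 arrays, 1 array lay far from the other 3 relative to the range of its group, where chance gives about 1 in 20. YARS1 was at 9.63 in control replicate 2 and at 9.73 to 9.75 in the other control arrays. NARS2 was at 8.98 in PA replicate 1 and at 9.06 to 9.07 in the other PA arrays. YARS2 was at 10.58 in PA replicate 4 and at 10.64 to 10.65 in the other PA arrays.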

How the results depend on the processing

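Over 18 alternatives, the 1.5-fold requirement not counted, no called gene changed direction. Of their 180 values 31 lost the call, 9 of them where GC-rich background entered as covariate. The cytosolic genes counted as raised, 7 before, were 15 by ANOVA with Storey-Tibshirani q-values, 11 with an intensity trend, 4 with the replicate block, 0 with the covariate and 0 when 1.5-fold was also required. The cytosolic genes counted as lowered, 0 before, were 1 (QARS1) with median centring, the trend, the ANOVA or the mean of all probe sets. The mitochondrial genes counted as raised, 2 before, were 4 with quantile normalization over the 8 arrays or the ANOVA, 1 with the covariate and 0 at 1.5-fold. The mitochondrial gene counted as lowered was lost (0) with the replicate block, the covariate and at 1.5-fold. Of probe sets, 37 were raised by the ANOVA, 11 with the block, 3 with the covariate and 2 at 1.5-fold, against 23. Lowered ones, 2 before, were 4 with a minimum mean of 5, median centring or the trend and 0 with no filter, the block, the covariate or at 1.5-fold. The replicate numbers do not pair the arrays (correlations of same-numbered deviations of -0.123 to 0.0448). The block also took the calls of AARS1, FARSA, SARS1 and IARS2. A sign-flip test of the pairs by number cannot go below 0.125 and was not used. Without each array in turn, raised genes were 5 to 7 cytosolic and 2 to 3 mitochondrial, lowered mitochondrial genes 0 to 1, raised probe sets 16 to 22, lowered probe sets 0 to 2, and pairs that did not overlap 5 to 7. Some values turned sign, none of them called, and all but that of XPOT were near 0. FARS2, PARS2 and WARS2 were at 0.0033, 0.002 and 0.0011 with quantile normalization, HARS2 at -0.01 with median centring, PARS2 at 0.0122 with array weights and FARS2 at 0.015 with the mean of its probe sets. With the covariate KARS1 was at -0.0054, AARS2 at 0.0424, PARS2 at 0.0268 and XPOT at 0.1659, against -0.22 before. Without each array in turn LARS1 ran from -0.0625 to 8e-04 (the low end, without PA replicate 3, was read at another probe set, then the brightest, and the first one was at 0.0033), AARS2 from -0.0508 to 0.0092, HARS2 from -0.0225 to 0.0567 and PARS2 from -0.0433 to 0.0267. The cause of the other shifts was not tested.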
